A study of Mus musculus with 8 samples.

Results

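The 37 genes of the mouse mitochondrial genome were examined across 8 libraries of heart RNA. They were taken as every row of the deposited table whose chromosome is MT, 37 of 54532 rows, and they comprise 13 protein-coding genes, 2 rRNA genes and 22 tRNA genes. The libraries came from heart tissue of C57BL/6 mice in 4 groups of 2: wild type with sham surgery, wild type with TAC, Piezo1-Cko with sham surgery and Piezo1-Cko with TAC. TAC usually stands for transverse aortic constriction, a surgery that makes the left ventricle pump against a narrowed aorta, and Piezo1 encodes an ion channel opened by membrane tension. The labels name no other allele or agent, and they give neither the cells in which the Piezo1-Cko allele acts, nor the age of the mice or the time since surgery. They also do not say whether the 2 libraries of a group are from different mice, so a p-value here reflects no more than the spread among the samples, and part of that may be technical.

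Mitochondria carry a small circular genome in many copies, and heart muscle is among the tissues richest in it. Both strands are transcribed into long precursors, from which tRNAs lying between the other genes are cut out, which frees the rRNAs and most mRNAs. The mRNAs encode core subunits of respiratory complexes I, III, IV and V, the rRNAs build the ribosome that translates them inside the organelle, and all other subunits are encoded in the nucleus and imported.

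Levels are given in FPKM, the reads of a gene divided by its length and by a size set for the library. That size was 0.886 to 0.945 of the library's recovered reads in the sham libraries and 1.02 to 1.10 in the TAC libraries. Relative to sham, levels after TAC are therefore lower than they would be with scaling to total reads. The deposited FPKM could be turned back into whole reads, 15574769 to 17313084 per library, so each mitochondrial share below has a Wilson 95% interval of at most 0.021 percentage points on either side, for counting error only. Libraries of the same group differed by more than counting error: the chi-square statistic divided by its degrees of freedom was 43.9 (sham) and 44.2 (TAC) in wild type and 17.3 and 31.2 in Piezo1-Cko. Piezo1 itself was at 2.35 to 3.09 FPKM after sham and 5.38 to 5.83 after TAC in wild type, and at 3.23 to 3.83 after sham and 3.89 to 5.24 after TAC in Piezo1-Cko, and a gene total does not check an allele that may remove only part of the gene in some cells. All 8 cardiomyocyte markers were detected, with a summed level of 20296 to 22986 FPKM in the sham libraries and 12182 to 15477 in the TAC libraries. The summed fibroblast markers were at 191 to 326 FPKM under sham and 426 to 896 under TAC, and the macrophage markers at 206 to 233 and 295 to 421. Not every marker moved with its sum in the average over both genotypes (limma adjusted p under 0.05). Actc1 (log2 fold change 0.09) and Ryr2 (-0.20) did not pass, while Myl2, Myl3, Tnni3, Myh6, Tnnt2 and Pln were lower. Dcn (-0.11), Pdgfra (0.29) and Tcf21 (0.28) did not pass, while Col1a1, Col1a2, Col3a1, Postn and Lum were higher. The 7 skeletal muscle markers summed to 440 to 572 FPKM under sham and 976 to 1428 under TAC. Acta1, a skeletal actin that heart muscle also expresses, was at 48.7 to 189 and 745 to 1154 FPKM, and the list without Acta1 and Ckm was at 2.25 to 3.80 and 1.28 to 2.21 FPKM, with Myh4 at 0 in all 8 libraries. WT sham replicate 1 and WT TAC replicate 1 had the highest fibroblast marker sum of their surgery, and WT TAC replicate 1 also had the highest B and plasma cell marker sum, 48.2 FPKM against 27.0 to 36.6 in the other 7.

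The mitochondrial members coincided in position with GENCODE release M21 of the GRCm38 genome for all 37 genes, and sequences are from its transcripts. Shown here are the tRNA with the highest level (mt-Tp, proline), the pair of neighbouring tRNAs that were lower after TAC in both genotypes together (mt-Tn, asparagine, and mt-Tc, cysteine) and the tRNA with no read in any library (mt-Tf, phenylalanine). The capitals mark the anticodon, and the gene strand is read 5′ to 3′.
mt-Tp (chrMT:15356-15422, minus strand): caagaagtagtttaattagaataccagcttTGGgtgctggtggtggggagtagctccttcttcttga
mt-Tn (chrMT:5089-5159, minus strand): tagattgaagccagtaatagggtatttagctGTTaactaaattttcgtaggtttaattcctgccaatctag
mt-Tc (chrMT:5192-5257, minus strand): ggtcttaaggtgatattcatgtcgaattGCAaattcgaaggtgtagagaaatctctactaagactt
mt-Tf (chrMT:1-68, plus strand): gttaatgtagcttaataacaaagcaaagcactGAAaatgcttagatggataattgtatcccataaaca

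The mitochondrial genome is packed so tightly that 9 pairs of its genes share bases. The largest shared stretch, 43 bases, belongs to mt-Atp8 and mt-Atp6, and it is shown because reads within it cannot be given to 1 of the pair. The capitals mark the start codon of mt-Atp6 and the stop codon of mt-Atp8.
mt-Atp8/mt-Atp6 overlap (chrMT:7927-7969, plus strand): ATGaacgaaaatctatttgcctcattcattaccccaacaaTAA

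Part of the mitochondrial genome is also present in the nucleus. Annotated unprocessed pseudogenes on chromosome 1 match 7 of the 13 protein-coding genes at 99% identity or more, in the order of the mitochondrial genes (chr1:24611535-24616197, minus strand, collinear with MT positions 6390 to 11042). The copies of mt-Co2 (Gm28661), mt-Atp6 (Gm10925), mt-Co3 (Gm28437), mt-Nd4l (Gm10222) and the first 876 bases of mt-Nd4 (Gm28439) had no mismatch over the aligned stretch. The copies of the last 483 bases of mt-Co1 (Gm29216) and of mt-Nd3 (Gm28438) had 1 mismatch each, A1066T and T3C, with the mitochondrial base given before the position, counted from 1 at the 5′ end of the mitochondrial gene. These windows are shown because they hold the only bases by which the aligned stretches differ, with the differing base in capitals.
mt-Co1 (chrMT:6390-6408, plus strand): ggaAttgttttatccaact
Gm29216 (chr1:24616170-24616188, minus strand): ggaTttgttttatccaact
mt-Nd3 (chrMT:9459-9476, plus strand): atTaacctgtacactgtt
Gm28438 (chr1:24613102-24613119, minus strand): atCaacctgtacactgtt

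Mitochondrial genes took 24.3% and 18.2% of the reads in the WT sham libraries and 17.6% and 20.7% in WT TAC. In Piezo1-Cko they took 24.4% and 21.2% under sham and 18.1% and 19.9% under TAC. Values under sham (18.2% to 24.4%) and under TAC (17.6% to 20.7%) overlapped in wild type and not in Piezo1-Cko. In bulk tissue, fewer cells of a type and less RNA per cell cannot be told apart. Protein-coding genes held 91.6% to 97.4% of the mitochondrial reads in each library, the 2 rRNAs 2.33% to 8.08%, and the 22 tRNAs together 0.282% to 0.409%. By level per length, the median over the genes of a class was 5871 FPKM for the 13 mRNAs, 3624 FPKM for the 2 rRNAs and 58.3 FPKM for the 22 tRNAs. The tRNA genes are 59 to 75 bases long, and how well such short RNAs are kept in these libraries was not tested. Reads on them were not separated into mature tRNA and precursor, so these values are not amounts of mature tRNA.

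**Figure D1:**
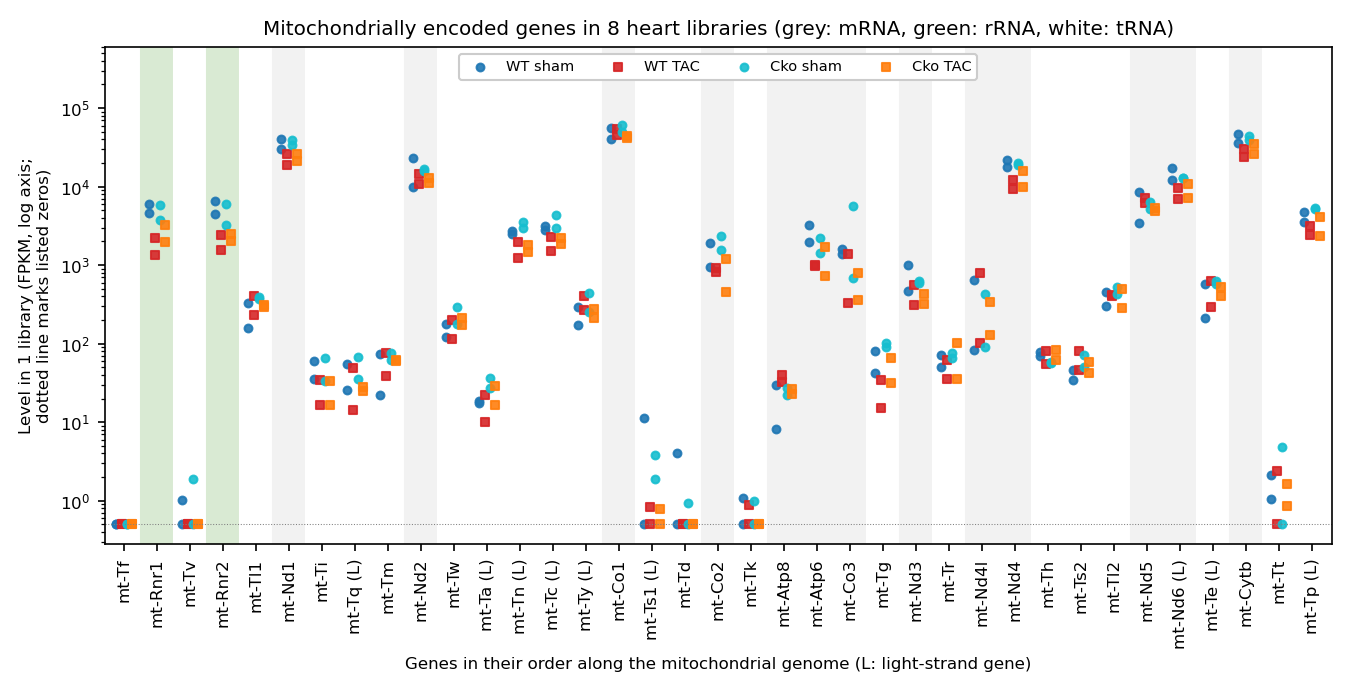
FPKM (log axis) of the 37 mitochondrially encoded genes in each of the 8 libraries, in genome order, with circles for sham and squares for TAC. Levels run from mt-Co1 at 40649 to 60619 FPKM down to mt-Tf, which is listed at 0 in all 8 libraries, and the 2 rRNAs are lower in every TAC library than in every sham library.

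The rRNAs were the members with the smallest adjusted p between surgeries in wild type and in the average over genotypes, while in Piezo1-Cko the smallest was 0.0837, for mt-Tn, which did not pass. mt-Rnr1 (ENSMUSG00000064337, chrMT:70-1024), the RNA of the small ribosomal subunit, was at 4618 and 6088 FPKM after sham and 1337 and 2199 after TAC in wild type, and 5917 and 3731 after sham and 1951 and 3203 after TAC in Piezo1-Cko. mt-Rnr2 (ENSMUSG00000064339, chrMT:1094-2675), the RNA of the large subunit, was at 4506 and 6549 FPKM after sham and 1576 and 2414 after TAC in wild type, and 6077 and 3290 after sham and 2023 and 2505 after TAC in Piezo1-Cko. For both genes all 4 TAC libraries lay below all 4 sham libraries. In wild type mt-Rnr1 fell 3.09-fold (log2 fold change -1.63, SE 0.37, limma adjusted p = 0.0328) and mt-Rnr2 fell 2.79-fold (log2 fold change -1.48, SE 0.36, adjusted p = 0.0391). They were the only 2 of the 31 tested members to pass in that comparison, 6.45%, against 13.2% of all 13928 tested genes in either direction and 7.65% in the lower one, so the share of members was not above that background. At an unadjusted p under 0.05 there were 9 members, 29.0%, against 33.7% of all genes, and limma-voom on the recovered reads called 3. In Piezo1-Cko the log2 fold changes were -0.91 for mt-Rnr1 (SE 0.37, adjusted p = 0.203) and -0.99 for mt-Rnr2 (SE 0.36, adjusted p = 0.167), and neither passed. The difference between the genotypes in this response, the interaction, was 0.72 for mt-Rnr1 (95% interval -0.49 to 1.93, adjusted p = 0.911) and 0.49 for mt-Rnr2 (-0.70 to 1.67, adjusted p = 0.925), so a difference was neither shown nor bounded tightly.

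Averaged over both genotypes, which uses the same 8 libraries as the separate comparisons, mt-Rnr1 was 2.41-fold lower after TAC (log2 fold change -1.27, SE 0.26, adjusted p = 0.0142) and mt-Rnr2 2.35-fold lower (log2 fold change -1.23, SE 0.25, adjusted p = 0.0146). The averaged calls were lost without Cko sham replicate 1 (adjusted p = 0.0581 and 0.0528, in the same order), and that of mt-Rnr2 also without Cko TAC replicate 1 (0.0541). They held with the replicate 1 libraries of WT sham and WT TAC removed together (adjusted p = 0.0472 and 0.0424). The wild-type calls were lost without WT sham replicate 1 (0.0647 and 0.0631), WT sham replicate 2 (0.135 and 0.161), WT TAC replicate 1 (0.137 and 0.161) and either Cko sham library (0.0542 to 0.0559), while the log2 fold change stayed between -1.99 and -1.17 for both genes. With scaling to the cardiomyocyte markers the wild-type values were -0.85 for mt-Rnr1 (adjusted p = 0.0204) and -0.70 for mt-Rnr2 (adjusted p = 0.0667). The summed cardiomyocyte markers were also lower in every TAC library, and their part in the fall was not tested.

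The rRNAs were lower relative to the mitochondrial mRNAs as well. The rRNA share of mitochondrial reads was 4.21% and 8.08% after sham and 2.33% and 2.91% after TAC in wild type, and 5.67% and 3.91% after sham and 3.09% and 3.70% after TAC in Piezo1-Cko. All sham values lay above all TAC values, but the highest TAC value, 3.70%, was close to the lowest sham value, 3.91%. When each library was scaled to its reads on the 13 mitochondrial mRNAs, the averaged log2 fold changes were -0.88 for mt-Rnr1 (adjusted p = 0.00137) and -0.85 for mt-Rnr2 (adjusted p = 0.00225). In the same order they were -1.31 and -1.16 in wild type (limma adjusted p = 0.0017 and 0.0073). In Piezo1-Cko they were -0.46 and -0.53, and neither passed (0.367 and 0.296). Apart from mt-Co3 and mt-Nd4l, the members' SE in each genotype was 0.31 to 0.33. The spread was thus largely shared between genes, and these adjusted p are not comparable with those of the main fit. On the log2 FPKM scale the mean of the rRNAs minus the mean of the mRNAs was -0.14 and 1.25 after sham and -0.62 and -0.56 after TAC in wild type, and 0.34 and 0.18 after sham and -0.15 and -0.03 after TAC in Piezo1-Cko. By this measure WT sham replicate 1 lay among the TAC libraries and WT sham replicate 2 above all others. How much rRNA a library keeps can depend on its preparation, and the labels name a kit but no step of mRNA selection or rRNA removal, so this was not tested.

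**Figure D2:**
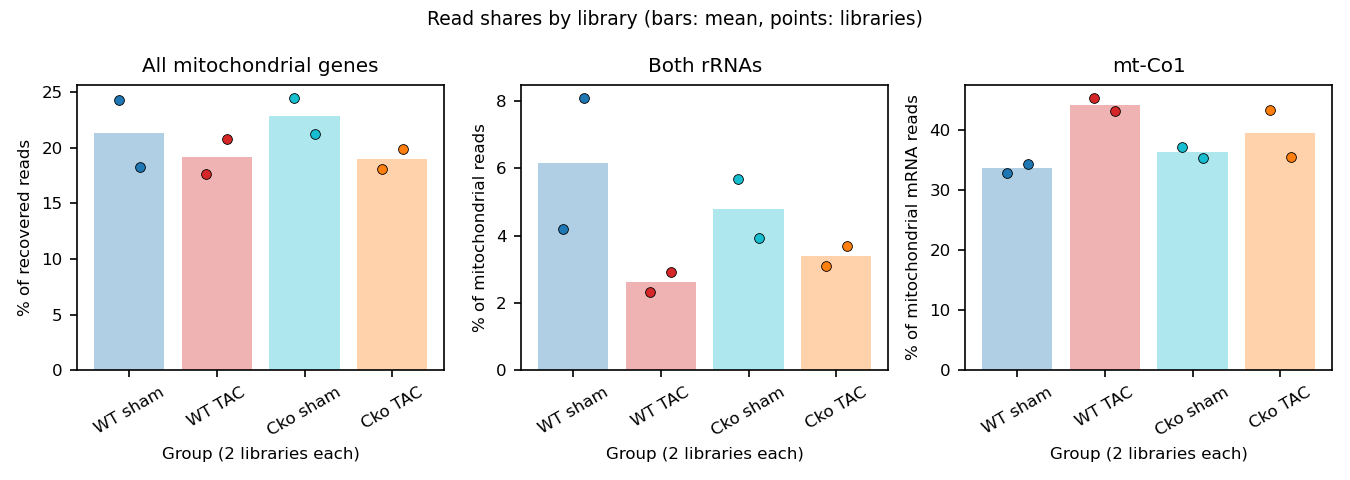
Shares of reads by group, with bars for the mean of 2 libraries and points for the libraries: mitochondrial genes among all reads, both rRNAs among mitochondrial reads, and mt-Co1 among mitochondrial mRNA reads. The rRNA share is 3.91% to 8.08% in the 4 sham libraries and 2.33% to 3.70% in the 4 TAC libraries, while the other shares overlap between surgeries.

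The 13 mRNAs spanned a wide range of levels. mt-Co1 (ENSMUSG00000064351, chrMT:5328-6872), the catalytic subunit of complex IV, was highest at a mean of 49136 FPKM, followed by mt-Cytb of complex III at 35097 and the complex I subunit mt-Nd1 at 29477. In each of the 8 libraries mt-Co1 was above mt-Cytb and mt-Cytb above mt-Nd1, although the ranges over libraries overlapped (mt-Co1 40649 to 60619, mt-Cytb 23975 to 46616, mt-Nd1 18841 to 40454 FPKM). mt-Co1, mt-Cytb, mt-Nd1 and mt-Nd4 together held 79.6% to 85.6% of the mitochondrial mRNA reads. The lowest counted mRNA was mt-Atp8, a small subunit of ATP synthase, at 8.29 to 39.5 FPKM. mt-Co2, mt-Atp8, mt-Atp6, mt-Co3, mt-Nd3 and mt-Nd4l lie wholly inside the span that is collinear with chromosome 1. Their mean levels were 26.1 to 1653 FPKM, and every other mRNA had a mean of 5871 FPKM or more. How reads that match both places were counted is not given, and their part in these levels was not tested. mt-Nd4l, a small complex I subunit, differed 9.59-fold between its highest and lowest library, with 641 and 83.1 FPKM after sham and 102 and 797 after TAC in wild type, and 426 and 90.6 after sham and 341 and 130 after TAC in Piezo1-Cko.

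Of the 7 complex I subunits, none passed in either genotype alone, and 2 passed in the average over genotypes. mt-Nd4 (ENSMUSG00000064363, chrMT:10167-11544), a proton-pumping membrane subunit, was at 22084 and 17634 FPKM after sham and 9440 and 12084 after TAC in wild type, and 20220 and 18637 after sham and 10002 and 15818 after TAC in Piezo1-Cko. Every TAC library lay below every sham library, and the averaged log2 fold change was -0.76 (SE 0.20, adjusted p = 0.0329). mt-Nd6 (ENSMUSG00000064368, chrMT:13552-14070), the only protein gene on the minus strand, was at 17392 and 12253 FPKM after sham and 6977 and 9708 after TAC in wild type, and 12913 and 12696 after sham and 7234 and 10698 after TAC in Piezo1-Cko. These values did not overlap either, and the averaged log2 fold change was -0.68 (SE 0.21, adjusted p = 0.0492). Both calls were lost without any 1 of 6 libraries, the exceptions being WT TAC replicate 2 and Cko TAC replicate 2 (adjusted p up to 0.117 for mt-Nd4 and 0.142 for mt-Nd6), and also with the replicate 1 libraries of WT sham and WT TAC removed together (0.154 and 0.220). mt-Nd6 passed in 6 of 21 other settings and mt-Nd4 in 11 of 21, and with scaling to the cardiomyocyte markers, described below, the 2 values were 0.0071 and -0.06.

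The other 5 complex I subunits did not pass. mt-Nd1 also had every TAC library below every sham library, with group means of 35172 ± 7470 FPKM after sham and 22464 ± 5124 after TAC in wild type, and 36446 ± 3366 after sham and 23827 ± 3313 after TAC in Piezo1-Cko (SD, n = 2), and an averaged log2 fold change of -0.63 (SE 0.20, adjusted p = 0.0515). It passed without WT TAC replicate 2 (-0.75, adjusted p = 0.0392). mt-Nd2, another membrane subunit, had an averaged log2 fold change of -0.36 (adjusted p = 0.361) and ranged from 10023 to 23108 FPKM, both extremes being WT sham libraries, which thus differed 2.31-fold. mt-Nd5, at the end of the membrane arm, had an averaged log2 fold change of 0.06 (adjusted p = 0.887), with 8433 and 3405 FPKM in the WT sham libraries against 4887 to 7220 under TAC. mt-Nd3 was at 313 to 990 FPKM (averaged log2 fold change -0.72, adjusted p = 0.096) and passed without WT sham replicate 2 (-0.99, adjusted p = 0.0359). mt-Nd4l had an averaged log2 fold change of 0.20 with an SE of 0.94 (adjusted p = 0.894), which ran from -0.54 to 0.94 over the libraries left out in turn.

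mt-Cytb (ENSMUSG00000064370, chrMT:14145-15288), cytochrome b and the mitochondrial subunit of complex III, was at 46616 and 35984 FPKM after sham and 23975 and 30073 after TAC in wild type, and 43923 and 39592 after sham and 25674 and 34938 after TAC in Piezo1-Cko. The sham and TAC libraries did not overlap, but the averaged log2 fold change of -0.54 (SE 0.19, adjusted p = 0.0767) did not pass.

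Among the 3 complex IV subunits none passed with all 8 libraries. mt-Co1 was at 55654 and 40649 FPKM after sham and 46087 and 54849 after TAC in wild type, and 60619 and 49069 after sham and 44271 and 41889 after TAC in Piezo1-Cko. Sham and TAC libraries of mt-Co1 overlapped, and the averaged log2 fold change was -0.13 (95% interval -0.57 to 0.31, adjusted p = 0.641). Its share of the mitochondrial mRNA reads was 32.8% and 34.3% after sham and 45.2% and 43.1% after TAC in wild type, and 37.1% and 35.3% after sham and 43.2% and 35.5% after TAC in Piezo1-Cko. In wild type the TAC shares lay above the sham shares, while in Piezo1-Cko they overlapped. mt-Co2, which receives electrons from cytochrome c, was at 455 to 2382 FPKM (averaged log2 fold change -1.01, adjusted p = 0.0732) and passed without Cko TAC replicate 2 (-1.36, adjusted p = 0.0204). mt-Co3, another core subunit, was at 5601 FPKM in Cko sham replicate 1 and 334 to 1621 FPKM in the other 7 libraries, and its averaged log2 fold change of -1.51 (SE 0.72, adjusted p = 0.157) was -0.75 without that library (adjusted p = 0.380) and -2.27 without Cko sham replicate 2 (adjusted p = 0.0486), so which Cko sham library is kept decides the value.

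Of the 2 ATP synthase subunits, mt-Atp6 passed in the average. mt-Atp6 (ENSMUSG00000064357, chrMT:7927-8607), part of the proton channel, was at 3202 and 1967 FPKM after sham and 1005 and 970 after TAC in wild type, and 2220 and 1438 after sham and 725 and 1692 after TAC in Piezo1-Cko. Cko TAC replicate 2 lay above Cko sham replicate 2, so the surgeries overlapped, and the averaged log2 fold change was -1.02 (SE 0.30, adjusted p = 0.0459). This call was lost when any library other than Cko TAC replicate 2 was left out (adjusted p up to 0.144). In wild type alone mt-Atp6 passed without either Cko TAC library (-1.35, adjusted p = 0.0365 and 0.036). mt-Atp8 was at 8.29 FPKM in WT sham replicate 2 and at 22.4 to 39.5 FPKM in the other 7 libraries. Its averaged log2 fold change was 0.57 (SE 0.35, adjusted p = 0.257). Without WT sham replicate 2 it was 0.12 (adjusted p = 0.530), and without WT sham replicate 1, which leaves the low library as the only WT sham sample, it was 1.02 (adjusted p = 0.011).

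**Figure D3:**
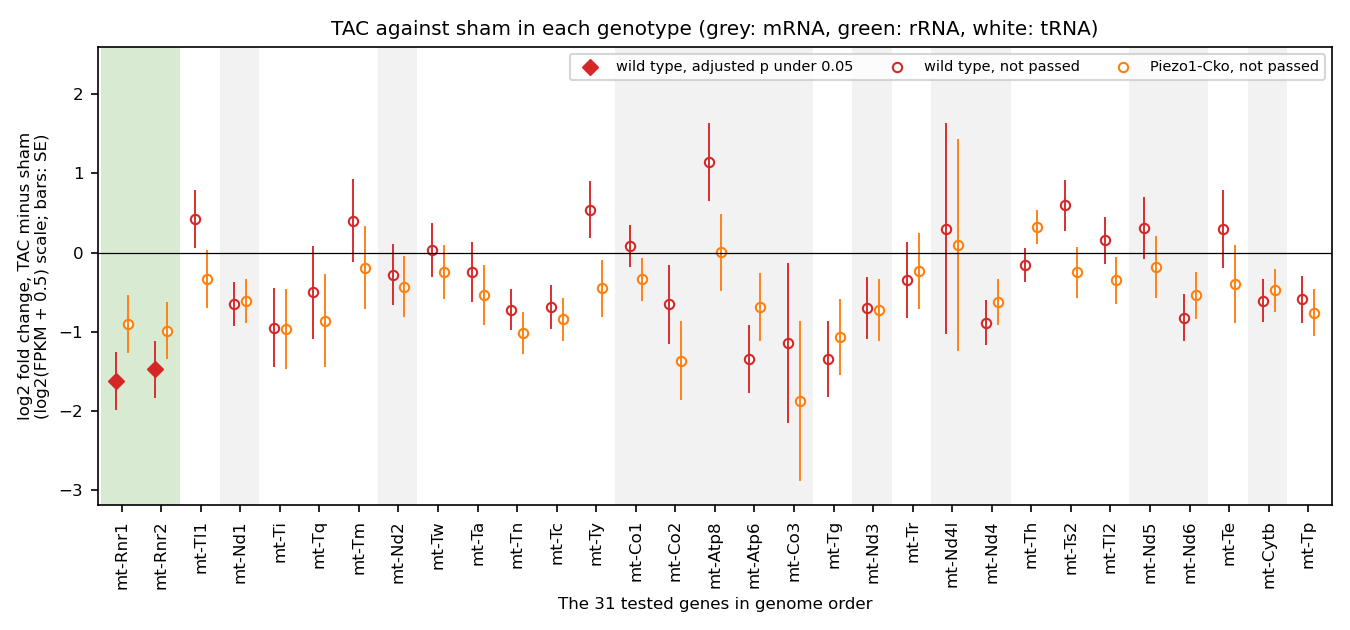
log2 fold change of TAC against sham in wild type and in Piezo1-Cko for the 31 tested mitochondrial genes in genome order, with bars for the SE. Filled symbols mark adjusted p under 0.05: mt-Rnr1 at -1.63 and mt-Rnr2 at -1.48 in wild type, and none in Piezo1-Cko.

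The tRNA genes were counted at low levels with some exceptions, and mature tRNA and precursor were not separated. Of the 22, 16 had enough reads to be tested (at least 0.5 FPKM and 10 reads in 2 libraries), and 6 did not: mt-Tt, mt-Ts1, mt-Tv, mt-Tk, mt-Td and mt-Tf, which had at most 11 reads in any library. mt-Tf had 0 reads in all 8, which allows up to 2.37 to 3.11 FPKM (3 reads) depending on the library. mt-Tf and mt-Tv, for valine, lie directly before each of the rRNA genes, and mt-Tv had at most 2 reads in a library. mt-Tl1, 1 of the leucine tRNAs and the gene that follows mt-Rnr2, was at 160 to 408 FPKM.

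The tRNAs with the highest mean levels were mt-Tp at 3852 FPKM, mt-Tc at 2649, mt-Tn at 2280 and mt-Te, for glutamate, at 482, all 4 on the minus strand. The 8 minus-strand tRNAs had a median of 386 FPKM over their means, with mt-Ts1 lowest at 2.31, and the 14 plus-strand tRNAs a median of 55.8 FPKM, with mt-Tl2, the other leucine tRNA, highest at 417. Whether reads were counted by strand is not given in the sources used here, so reads of a minus-strand gene and of the precursor transcribed across it from the other strand cannot be told apart, and the same holds for mt-Nd6. The level of mt-Nd6 relative to the other 12 mRNAs (log2 ratio to their geometric mean) was 1.57 to 2.39 under sham and 1.64 to 2.05 under TAC, with overlap. That geometric mean is lowered by mt-Co2, mt-Atp8, mt-Atp6, mt-Co3, mt-Nd3 and mt-Nd4l, whose mean levels were 26.1 to 1653 FPKM. The mean of mt-Nd6, 11234 FPKM, lay below those of mt-Co1, mt-Cytb, mt-Nd1, mt-Nd4 and mt-Nd2 (14392 FPKM or more). It lay above that of mt-Nd5 (5871 FPKM).

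In each genotype alone no tRNA passed with all 8 libraries, and 3 passed in the average. mt-Tn passed in Piezo1-Cko without either WT TAC library (-1.02, adjusted p = 0.0483 and 0.0484) and in wild type without WT TAC replicate 2 (-1.07, adjusted p = 0.0393). mt-Tn (ENSMUSG00000064348) was at 2709 and 2478 FPKM after sham and 1234 and 1990 after TAC in wild type, and 3575 and 2999 after sham and 1451 and 1803 after TAC in Piezo1-Cko, and mt-Tc (ENSMUSG00000064349) was at 3121 and 2823, 1495 and 2266, 4399 and 3013, and 1866 and 2207 FPKM in the same order. In both genes, every TAC library lay below every sham library. The averaged log2 fold change was -0.87 for mt-Tn (SE 0.18, adjusted p = 0.0157) and -0.77 for mt-Tc (SE 0.19, adjusted p = 0.0269). mt-Tg, the glycine tRNA (ENSMUSG00000064359, chrMT:9391-9458), was at 42.4 and 80.8 FPKM after sham and 15.02 and 34.2 after TAC in wild type, and 91.2 and 102 after sham and 31.9 and 65.5 after TAC in Piezo1-Cko, from 19 to 106 reads. The surgeries overlapped for mt-Tg, and its averaged log2 fold change was -1.21 (SE 0.34, adjusted p = 0.0389). None of these 3 calls held without Cko sham replicate 1 (adjusted p = 0.0692, 0.103 and 0.0987 for mt-Tn, mt-Tc and mt-Tg) or without Cko TAC replicate 1 (0.056, 0.0861 and 0.118). That of mt-Tc was also lost without either WT sham library (0.0666 and 0.0586) or WT TAC replicate 1 (0.0619), and that of mt-Tg without WT sham replicate 2 (0.110), WT TAC replicate 1 (0.0861) or Cko sham replicate 2 (0.112). With the replicate 1 libraries of WT sham and WT TAC removed together, the adjusted p was 0.0582, 0.113 and 0.0507 for the 3. With scaling to the cardiomyocyte markers none of the 3 passed (-0.18, -0.07 and -0.53).

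The other 13 tested tRNAs had averaged log2 fold changes on both sides of 0. mt-Tp, shown above, was at 4797 and 3571 FPKM after sham and 2413 and 3126 after TAC in wild type, and 5314 and 5171 after sham and 2362 and 4062 after TAC in Piezo1-Cko (averaged log2 fold change -0.68, SE 0.21, adjusted p = 0.0525), and passed without Cko TAC replicate 2 (-0.87, adjusted p = 0.0185). The isoleucine tRNA mt-Ti was at 16.4 to 65.3 FPKM (-0.96, adjusted p = 0.0868) and the glutamine tRNA mt-Tq at 14.4 to 67.1 FPKM (-0.68, adjusted p = 0.257), and both passed without WT TAC replicate 2 (-1.22 and -1.12, adjusted p = 0.0485 and 0.0475). mt-Th, for histidine, varied least, at 54.6 to 82.9 FPKM (0.08, adjusted p = 0.719). The remaining 9 were mt-Ta, mt-Te, mt-Tl1, mt-Tl2, mt-Tm, mt-Tr, mt-Ts2, mt-Tw and mt-Ty, for alanine, glutamate, leucine (mt-Tl1 and mt-Tl2), methionine, arginine, serine, tryptophan and tyrosine. Their averaged log2 fold changes ran from -0.39 for mt-Ta to 0.17 for mt-Ts2. The 7 tested minus-strand tRNAs had a median of -0.68 in the average with 2 lower, and the 9 tested plus-strand tRNAs a median of -0.10 with 1 lower.

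Over all 31 tested members, 8 were lower and none higher in the average of both genotypes, 25.8% against 25.4% of all genes called in either direction and 13.5% called lower, so the lower share of members was above the background of lower calls and the total share near that of all calls. At an unadjusted p under 0.05 there were 14 members, 45.2%, against 40.3% of all genes. The members' median log2 fold change was -0.54, with 23 below 0, against 0.01 over all tested genes. By class the median was -0.63 for the mRNAs (3 of 13 lower), -1.25 for the rRNAs (2 of 2 lower) and -0.20 for the tested tRNAs (3 of 16 lower). In wild type the median was -0.50 with 20 below 0, and in Piezo1-Cko -0.54 with 28 below 0. In Piezo1-Cko limma called 0 of 31, against 1.49% of all genes; 6 members, 19.4%, had an unadjusted p under 0.05, against 21.8% of all genes, and limma-voom on the recovered reads also called 0. All 4 TAC libraries lay below all 4 sham libraries for 8 of the 31 tested members, 25.8% (mt-Nd1, mt-Nd4, mt-Cytb, mt-Nd6, mt-Rnr1, mt-Rnr2, mt-Tn and mt-Tc), against 14.6% of all tested genes, and above for none, against 13.1%.

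The direction over the members as a group depended on the scaling and on the libraries. With each library scaled to the summed reads of its 8 cardiomyocyte markers, an alternative chosen after seeing the data, the median over all genes moved up by 0.58 in the average. The members' median then became 0.15, with 8 higher (mt-Co1, mt-Atp8, mt-Th, mt-Tl1, mt-Tl2, mt-Ts2, mt-Tw and mt-Ty) and 2 lower, mt-Rnr1 (-0.58, adjusted p = 0.0165) and mt-Rnr2 (-0.54, adjusted p = 0.0407), against 66.6% of all genes higher and 1.64% lower. With the replicate 1 libraries of WT sham and WT TAC removed together, the wild-type member median was 0.25 with 14 members below 0, and the averaged median was -0.14. Averaged calls were then mt-Rnr1 and mt-Rnr2 lower and mt-Atp8, mt-Tl1 and mt-Tm higher (log2 fold changes of 0.95, 0.51 and 0.77).

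No member passed in a comparison of the genotypes. Under sham, limma called 0 of 31 members, against 0.0215% of all genes, and 0 had an unadjusted p under 0.05, against 7.68%. Under TAC it also called 0, against 0% of all genes, with 0 at an unadjusted p under 0.05 (9.11% of all genes), and limma-voom called 0 in both. mt-Rnr1 had log2 fold changes of -0.17 under sham (95% interval -1.03 to 0.68) and 0.54 under TAC (-0.31 to 1.40). mt-Co1 had 0.20 under sham (-0.43 to 0.82). These intervals include changes of more than 1.5-fold, so differences of that size were neither shown nor excluded with 2 libraries a group. Over all tested members the lowest and highest limits of the 95% intervals were -3.41 and 2.94 under sham and -3.61 and 2.74 under TAC. Of the 16 tested tRNAs, 15 were above 0 under sham, with a median of 0.47, and 11 under TAC, with a median of 0.11. In the average over surgeries limma and limma-voom each called 0 members, against 0.00718% of all genes by limma. In that average 2 members had an unadjusted p under 0.05, against 11.4% of all genes: mt-Tg (0.85, adjusted p = 0.400) and mt-Ta (0.67, adjusted p = 0.404). The interaction also gave 0 calls by both, against 0.00718% by limma, with 0 members at an unadjusted p under 0.05 (4.77% of all genes). The 7 endothelial markers were also all above 0 in Piezo1-Cko under sham (median 0.56), with none passing, and their part in the tRNA values was not tested.

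The nuclear copies on chromosome 1 were listed with reads in the deposited table, in all 8 libraries, and whether these reads came from the copies was not tested. Their summed reads equalled 0.646% to 1.05% of the mitochondrial reads under sham and 0.432% to 0.569% under TAC. For mt-Co2 the copy held 17.95% to 42.9% of the reads of gene and copy together, for mt-Atp6 15.7% to 25.5%, for mt-Co3 8.69% to 35.6%, for mt-Nd3 8.47% to 20.3% and for mt-Nd4l 7.39% to 48.4%. For mt-Co1 it was 0.162% to 1.56% and for mt-Nd4 0.201% to 0.619%, whose copies match only part of the gene. Where 2 sequences are identical, reads cannot be assigned between them by sequence, so the levels of mt-Co2, mt-Atp6, mt-Co3, mt-Nd3 and mt-Nd4l are uncertain. The same limit applies to the first 876 of the 1378 bases of mt-Nd4 and, but for 1 base, to the last 483 of the 1545 bases of mt-Co1. The small shares of these 2 copies do not show how reads that match both places were counted. The copied span also holds mt-Atp8 and the tRNAs mt-Ts1, mt-Td, mt-Tk, mt-Tg and mt-Tr. The stretches of chromosome 1 opposite mt-Atp8 and these tRNAs were not analysed here. For the other 6 mRNAs and both rRNAs no annotated nuclear transcript reached 99% identity. With the copies' reads added to their genes, an alternative chosen after seeing the data, 9 members were lower in the average and mt-Co2 was the addition (-1.19, adjusted p = 0.0296).

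**Figure D4:**
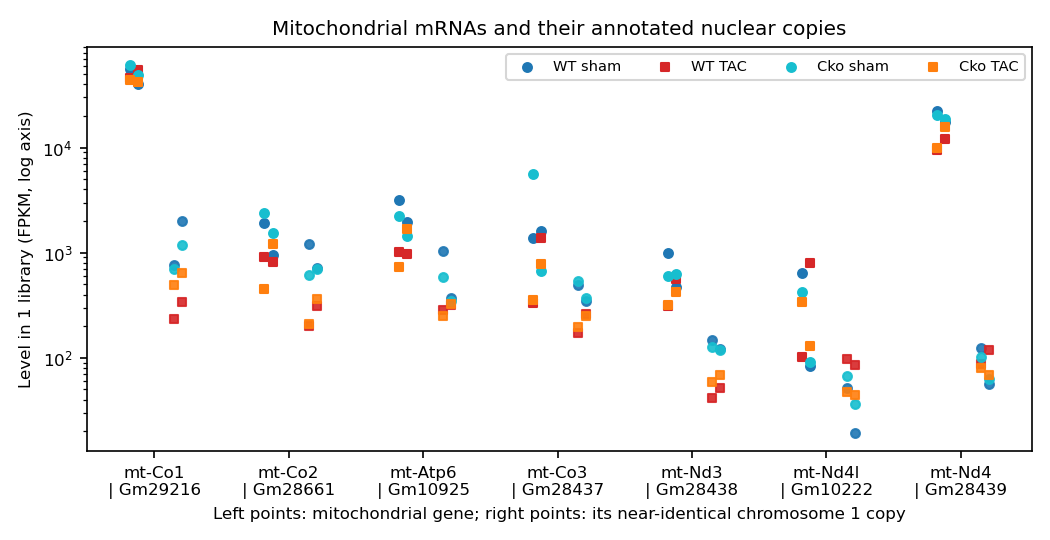
FPKM (log axis) of the 7 mitochondrial mRNAs with a near-identical chromosome 1 pseudogene (left points) and of that pseudogene (right points) in the 8 libraries. The mt-Co2 copy is at 201 to 1209 FPKM beside 455 to 2382 for the gene, while the mt-Nd4 copy is at 56.0 to 125 FPKM beside 9440 to 22084.

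The respiratory subunits encoded in the nucleus were set beside those encoded in mitochondria, from lists of 72 nuclear subunits of complexes I, III, IV and V. In wild type 64 of the 72 nuclear subunits (88.9%) fell after TAC, against 7.65% of all tested genes, with a median log2 fold change of -1.05. Of the 13 mitochondrial subunits 0 passed, with a median of -0.65. By complex, 32 of 36 nuclear subunits fell in complex I (median -1.04), 7 of 9 in complex III (-0.98), 11 of 11 in complex IV (-1.18) and 14 of 16 in complex V (-1.03). The complex I subunit Ndufa13 fell 2.59-fold (adjusted p = 0.0177), Uqcr10 of complex III 2.09-fold (adjusted p = 0.0237) and Cox7c of complex IV 2.27-fold (adjusted p = 0.0168). In Piezo1-Cko 0 of the 72 passed, against 1.49% of all tested genes in either direction. All 72 had a log2 fold change below 0 (median -0.67), and the 13 mitochondrial subunits had a median of -0.54. In the average 70 of 72 nuclear and 3 of 13 mitochondrial subunits were lower (97.2% and 23.1%, medians -0.85 and -0.63), against 13.5% of all tested genes. The difference between the 2 sets of subunits was not tested. The wild-type count of 64 became 0 without WT sham replicate 2 or WT TAC replicate 1, to 14 without WT sham replicate 1 and to 8 without either Cko sham library, with medians between -1.17 and -0.84. The averaged count of 70 was 44 to 71 with 1 library left out, lowest without Cko sham replicate 1. With scaling to the cardiomyocyte markers 21 of 72 were lower and 1 higher in wild type (median -0.27), against 1.15% of all genes lower and 51.4% higher. The cardiomyocyte marker sum was lower in every TAC library, as given above, and its part in these counts was not tested.

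**Figure D5:**
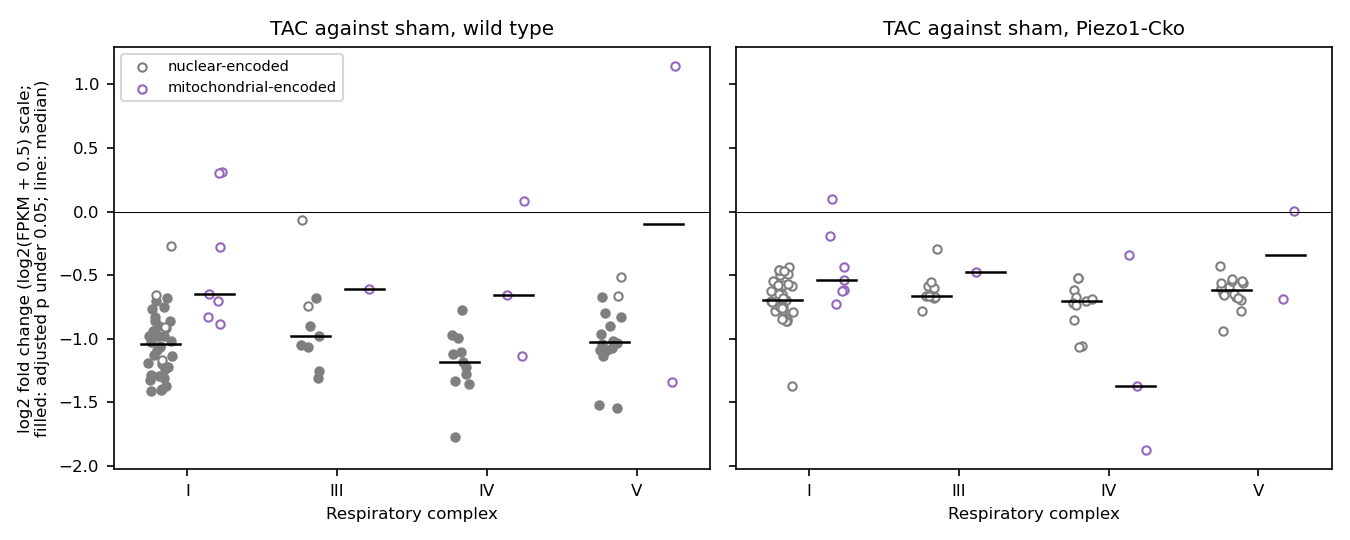
log2 fold change of TAC against sham for nuclear-encoded (grey) and mitochondrially encoded (purple) subunits of respiratory complexes I, III, IV and V, with filled points for adjusted p under 0.05 and lines for medians. In wild type 64 of 72 nuclear and 0 of 13 mitochondrial subunits pass, against 7.65% of all tested genes lower. In Piezo1-Cko none pass, against 1.49% of all tested genes in either direction.

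Of the 115 tested nuclear genes that copy, transcribe, process and translate the mitochondrial genome or regulate its amount, 17 fell after TAC in wild type and none rose, with a median log2 fold change of -0.21, so that 14.8% were lower against 7.65% of all genes; under scaling to the cardiomyocyte markers, which moves the median of all genes up by 0.65, 47 (40.9%) were higher and 0 lower (median 0.49), against 51.4% of all genes higher. The median of all genes was 0.01 with the deposited scaling and 0.66 with the other, above that of the list in both. With scaling to total recovered reads 3 were lower and 2 higher in wild type (median -0.0037). Scaling to reads outside the mitochondrial genome gave 6 lower and 1 higher (-0.04), and to the 13 mitochondrial mRNAs 0 lower and 3 higher (0.08). Scaling by the median ratio over nuclear genes gave 16 lower and 0 higher (-0.21), so the count depended on the scaling. The 17 became 0 without WT sham replicate 2 or WT TAC replicate 1, and 1 without WT sham replicate 1 or either Cko sham library. The counts that follow are those with the deposited scaling and are to be read against the same 7.65%. Of 11 transcription genes, 1 was lower in wild type: Mterf2, of a family of mitochondrial terminator-like factors (log2 fold change -0.73, adjusted p = 0.0364). Polrmt, the mitochondrial RNA polymerase, was at 4.16 to 6.27 FPKM over the 8 libraries (-0.21, adjusted p = 0.400), and Tfam, which packages the genome and starts its transcription, at 8.71 to 10.6 FPKM (0.05, adjusted p = 0.806). Of 18 genes of DNA replication and nucleotide supply, 6 were lower, among them the helicase Twnk (-0.51, adjusted p = 0.0410), the topoisomerase Top1mt (-0.77, adjusted p = 0.0173) and Mpv17, an inner membrane protein needed to maintain the genome (-0.60, adjusted p = 0.0243). Of 21 RNA processing genes, 3 were lower, including Hsd17b10, a subunit of the enzyme that cuts tRNA 5′ ends (-1.03, adjusted p = 0.0286). Lrpprc, which protects mitochondrial mRNAs (-0.15, adjusted p = 0.611), and its partner Slirp (-0.21, adjusted p = 0.693) did not pass.

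For the translation side, 3 of 22 tRNA synthetase and related genes were lower in wild type, with Gatb (-0.88, adjusted p = 0.0286) and Fars2, which charges mt-Tf with phenylalanine (-0.78, adjusted p = 0.0368). Of 19 rRNA and tRNA modification genes 2 were lower, Trmt5 (-0.67, adjusted p = 0.0275) and Mrm3, which methylates the large rRNA (-0.74, adjusted p = 0.0414), and of 12 translation factors 0 passed. Among 12 regulators of mitochondrial biogenesis, Esrra (-0.68, adjusted p = 0.0291) and Perm1 (-0.51, adjusted p = 0.0408) were lower, and the coactivator Ppargc1a was not called (-0.20, adjusted p = 0.650). In Piezo1-Cko, Perm1 was the only gene of these lists to pass (-0.75, adjusted p = 0.0429). In the average over genotypes 29 of the 115 were lower and 2 higher (median -0.19), against 13.5% of all tested genes lower. Among the lower were the translation factors Tufm (-0.55, limma adjusted p = 0.0269) and Tsfm (-0.32, adjusted p = 0.0355). With scaling to total recovered reads the averaged counts were 14 lower and 8 higher (median -0.0018), so they too depended on the scaling.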

How the data were processed

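Per the labels' protocols, RNA was isolated with Trizol and libraries were prepared with an NEBNext Ultra kit. The authors deposited 1 table of FPKM per gene for the 8 libraries; how FPKM was scaled, the strand setting and any filter are not given in the sources used here. Without stating what each was used for, the submitters' processing notes list featureCounts 1.5.0-p3, Bowtie 0.12.2 and CASAVA 1.8, and as builds mm10 and mm8. After length is accounted for, the deposited FPKM were multiples of the worth of 1 read, which gave whole reads (within 0.01) for 100% of values, and these recovered reads set depth, filter and shares.

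Genes with at least 0.5 FPKM and 10 reads in 2 libraries were kept: 13928, of which 31 of the 37 members. log2(FPKM + 0.5), with the deposited scaling kept, was fitted with limma 3.58.1 (R 4.3.3), with 1 term per group over all 8 libraries, an intensity trend and robust moderation. There were 4 residual degrees of freedom and a median of 3.54 prior ones. p-values are two-sided and Benjamini-Hochberg adjusted over all tested genes within each of 7 comparisons, with a threshold of 0.05. Because of the added 0.5, fold changes of low genes are understated. The procedure was tested on simulated data. Replicates are counted separately, and in every group they differed by more than sampling noise. That spread does not show that they are from different mice, which the labels leave unstated.

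All mRNAs, rRNAs and tested tRNAs are named. Nuclear lists are given by counts, with Polrmt, Tfam, Lrpprc, Slirp, Ppargc1a and Twnk named always and at most 2 genes with the smallest p per list and comparison. Members and lists were chosen with earlier results of these data known. Transcripts were aligned with blastn 2.17.0 to GENCODE release M21 (GRCm38). The effect of 22 other settings is given at the end.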

Additional observations from a re-analysis of the deposited data

How the results depend on the processing

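Among members called in wild type (2), there were 5 with scaling to the 13 mitochondrial mRNAs, 0 when all genes with a read were kept, 0 when only the compared groups were fitted, 0 with the replicate 1 libraries of WT sham and WT TAC removed together, and 9 (8 higher, 1 lower) with scaling to the cardiomyocyte markers. Leaving out 1 library at a time gave 0 to 3. In Piezo1-Cko (0) the last scaling gave 1, and leaving out 1 library gave 0 to 1. In the average over genotypes (8) there were 5 with total-read scaling, 3 when all genes with a read were kept and 5 (3 higher, 2 lower) with that pair removed, and 0 to 10 with 1 library left out, 0 being without Cko sham replicate 1. Under cardiomyocyte-marker scaling 12 of 31 members changed sign in wild type, 14 in Piezo1-Cko and 11 in the average. Those that were called before or after the change were mt-Th in wild type (0.61), and in the average mt-Co1 (0.56), mt-Nd6 (0.0071), mt-Tl2 (0.59) and mt-Tw (0.58). The causes were not tested. That scaling and the added chromosome 1 reads were chosen after seeing the data. Whether same-numbered libraries are pairs is not given in the labels. Correlations of replicate deviations between groups were 0.0256 to 0.248 over all tested genes and -0.584 to 0.574 over the 31 members, which does not settle it. A replicate block gave 3 calls in wild type, 0 in Piezo1-Cko and 6 in the average. Genotype and interaction comparisons gave 0 members in every setting run. Calls over all genes were highest with cardiomyocyte-marker scaling: 7390 in wild type (1842 in the main fit), 3475 in Piezo1-Cko (208) and 9603 in the average (3537). In Piezo1-Cko they fell to 0 when all genes with a read were kept. In wild type they were lowest with that pair of replicate 1 libraries removed, and in the average without Cko sham replicate 1. The absence or loss of member calls in those settings was thus not particular to the members. Counting limits members with few reads, such as mt-Tg (19 to 106) and mt-Atp8 (24 to 150).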
